A study of Homo sapiens with 6 samples.

Results

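The TRIM genes encode a large family of ubiquitin ligases, and 78 of the 20461 genes in the tables carried a symbol made of TRIM followed by a number. They were taken by that naming rule, whatever their level. Of the 78, 47 passed the filter on low counts and entered the test of 13645 genes, and 22 had 0 counts in every library. TRIM6, which was higher with PDZK1 overexpression, and TRIM47, which was lower, were chosen by the same contrast that is described here, so their differences are given as values and carry no test.

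RNA was sequenced from ARPE-19 cells, a spontaneously immortalised human retinal pigment epithelial (RPE) cell line. The cells had received a control lentivirus (control, 3 libraries) or a lentivirus that overexpresses PDZK1 (PDZK1, 3 libraries), a scaffold protein with PDZ domains that anchors membrane transporters. Both groups were infected at a multiplicity of infection of 10, selected with 4 µg/ml puromycin and kept in 37.5 mM glucose for 48 h. High glucose was therefore shared by controls and treated cells, and no library of normal glucose was analysed here. The cells of each group come from 1 cell line, and no label says that the 3 replicates were separate cultures. The p-values therefore measure the spread between these samples, which may be technical.

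A TRIM protein begins with a tripartite motif made of a RING finger, 1 or more B-box zinc fingers and a coiled coil. The RING finger recruits a ubiquitin-loaded E2 enzyme, and the domain at the other end, most often a PRY-SPRY domain, binds the target. Many members are induced by interferon and act against viruses or tune the pathways that sense foreign RNA and DNA, while TRIM28 and its relatives bind chromatin.

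Total counts ran from 27970618 to 32804567 per library. PDZK1 itself stood at 0.583 to 0.834 CPM (counts scaled to library size by TMM) in control and at 77.5 to 94.3 CPM in PDZK1 libraries. Of the 19 RPE markers in the tables, OTX2 (57.0 to 76.2 CPM), MITF (35.4 to 46.5 CPM) and KRT8 (1073 to 1221 CPM) were present. So were KRT18, RDH11, EZR and, at a lower level, RDH5 (5.36 to 7.50 CPM). RPE65 and TTR had 0 counts in every library, and TYR and DCT had at most 4. RLBP1, PMEL, TYRP1, MERTK, SERPINF1, LRAT and CA12 reached at most 5.18 CPM. SERPINF1, LRAT and CA12 were lower in every PDZK1 library than in every control, as were 12.3% of all tested genes. Of the 15 tested RPE markers, 0 passed the edgeR threshold. Markers of other cell types were mixed. Of 9 fibroblast markers, COL1A2, THY1, DCN and LUM were at 0, but FAP (72.7 to 108 CPM), PDGFRB (64.4 to 83.8 CPM) and COL1A1 (3.30 to 6.12 CPM) had counts. The summed level of the fibroblast list was 154 to 168 CPM in control and 177 to 198 CPM in PDZK1 libraries, none of its 4 tested genes passed the edgeR threshold (3 of 4 at an unadjusted p under 0.05, and 0 in DESeq2 or limma-voom), and its part in the results below was not tested. The leukocyte markers PTPRC, CD3E and AIF1 and the endothelial markers CDH5 and EMCN were at 0, while CD68 (123 to 160 CPM) and KDR (3.37 to 5.11 CPM) had counts. In the second principal component (21.1% of the variance) control replicate 3 stood apart, at -30.0 against 14.5 and 18.8 in the other controls. PDZK1 replicate 1 held more of the interferon response genes than the other libraries, and BEST1, a chloride channel of the RPE, reached 358 CPM in it against 4.32 to 5.60 CPM in the other 5.

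As a family, the TRIM genes took a small and slightly larger share of the counts with PDZK1. Their share was 0.240%, 0.239% and 0.238% in the controls, in the order of their replicate numbers, and 0.259%, 0.254% and 0.250% in the PDZK1 libraries. The sums in FPKM, which scale for transcript length, were 541 to 547 in control and 576 to 597 in PDZK1 libraries, and TRIM6 and TRIM47 are part of both sums. Between 48 and 53 members had at least 1 count in a library. In bulk RNA, fewer cells of a kind and less RNA per cell cannot be told apart.

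The most abundant members per length were TRIM22, TRIM28, TRIM58, TRIM8 and TRIM25. TRIM22, an interferon-induced antiviral ligase, was listed at 61.5, 64.1 and 62.3 FPKM in control and at 76.4, 68.2 and 67.7 FPKM in PDZK1 libraries. TRIM28, the corepressor that KRAB zinc finger proteins recruit to chromatin, was listed at 56.0 to 59.2 FPKM in control and 56.2 to 62.2 FPKM in PDZK1 libraries, below TRIM22 in every library. TRIM58 (34.3 to 40.1 FPKM), a ligase known from the maturation of red blood cells, and TRIM8 (27.6 to 36.5 FPKM), a regulator of cytokine signalling, overlapped in range. TRIM25, the ligase that modifies the RNA sensor RIG-I, followed at 22.5 to 27.6 FPKM, a range that TRIM5 (19.8 to 26.8 FPKM) overlapped. The 5 most abundant members of each library held 38.1% to 39.6% of the family's FPKM.

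**Figure D1:**
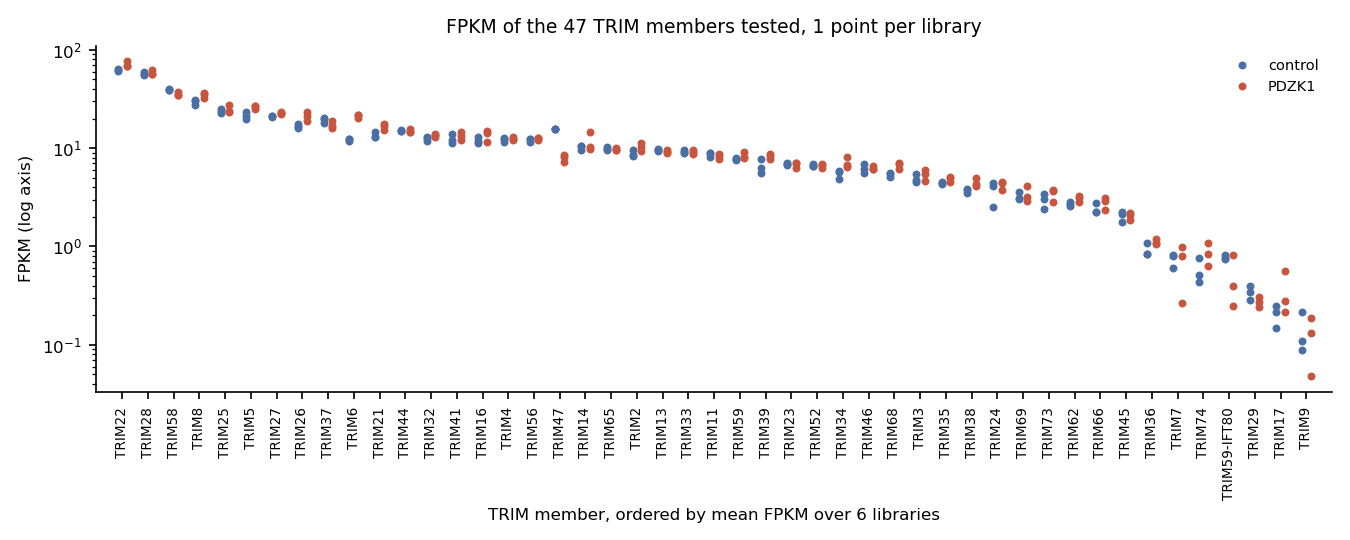
FPKM of the 47 tested TRIM members (log axis), with 1 point per library, control in blue and PDZK1 in red, ordered by the mean over all 6 libraries. Levels run from 66.7 FPKM for TRIM22 to 0.130 FPKM for TRIM9, and the points of the 2 groups lie apart for TRIM6 and for TRIM47, in opposite directions.

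TRIM6 (ENSG00000121236, chromosome 11, 5596109 to 5612958, plus strand, GRCh38) is a PRY-SPRY ligase known to build unanchored ubiquitin chains that activate the kinase IKKε in interferon signalling. It measured 45.4, 45.6 and 43.3 CPM in the controls and 77.4, 77.9 and 70.7 CPM in the PDZK1 libraries, here and below in the order of the replicate numbers. The groups did not overlap, and the lowest PDZK1 library was above the highest control by more than the range of either group. The means were 44.8 ± 1.23 and 75.3 ± 4.01 CPM (SD, n = 3 each), and the log2 fold change was 0.75 (SE 0.055), or 1.68-fold. By FPKM it ranked 16 in the family in control and 8 in PDZK1 libraries.

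TRIM47 (ENSG00000132481, chromosome 17, 75874161 to 75878575, minus strand) is a ligase of the same PRY-SPRY class, first described as overexpressed in astrocytoma. It measured 36.8, 35.8 and 36.7 CPM in control and 18.7, 16.9 and 20.0 CPM in PDZK1 libraries, again with no overlap. The means were 36.5 ± 0.564 and 18.5 ± 1.52 CPM (SD, n = 3 each), a log2 fold change of -0.98 (SE 0.0693), or 0.508 times the control level. Its rank by FPKM went from 10 to 26. The ratio of TRIM6 to TRIM47 in FPKM was 0.794, 0.803 and 0.759 in control and 2.73, 3.02 and 2.37 in PDZK1 libraries, so TRIM47 was the more abundant of the pair in every control and TRIM6 in every PDZK1 library. An antisense gene, AC087289.5, overlaps TRIM47 by 2204 bp, and AC104389.4 overlaps all of TRIM6 on the opposite strand. Neither was among the tested genes, which does not show whether reads of either were counted. Whether the counting used strand is not given in the sources used here.

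Against the whole table, 3.83% of the tested genes passed the threshold (adjusted p under 0.05, edgeR), 1.41% higher and 2.41% lower. In the family 6 of 47 did, and TRIM6 and TRIM47 are 2 of these. The other 4 were TRIM5, TRIM26, TRIM68 and TRIM8, all higher with PDZK1, so that 4 of 45 members passed higher and 0 lower once TRIM6 and TRIM47 are set aside, with 11 of the 45 at an unadjusted p under 0.05. DESeq2 and limma-voom also gave 0 lower. Over all tested genes, 2388 of 13645 had an unadjusted p under 0.05 in edgeR, which is the background for every such count given here. Because the contrast entered the choice of the family, nothing is read from these shares.

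TRIM5 (ENSG00000132256, chromosome 11, 5663557 to 5938619, minus strand), the cytosolic factor that binds and disrupts incoming retroviral capsids, measured 68.5, 66.7 and 73.8 CPM in control and 88.4, 85.8 and 79.1 CPM in PDZK1 libraries. All PDZK1 libraries were above all controls, by a log2 fold change of 0.28 (SE 0.0569, edgeR adjusted p = 0.0290). TRIM26 (ENSG00000234127, chromosome 6, 30184455 to 30213427, minus strand), a ligase reported to act on the interferon-β pathway, measured 59.2, 61.8 and 57.2 CPM against 75.1, 66.9 and 74.0 CPM. Its groups were also apart, and its log2 fold change was 0.28 (SE 0.0574, edgeR adjusted p = 0.0299). TRIM68 (ENSG00000167333, chromosome 11, 4598672 to 4608259, minus strand), a ligase known as a cofactor of the androgen receptor, had the largest of the 4 fold changes. It measured 19.4, 18.0 and 18.2 CPM against 24.1, 21.9 and 24.5 CPM, a log2 fold change of 0.34 (SE 0.0716, edgeR adjusted p = 0.0303). TRIM8 (ENSG00000171206, chromosome 10, 102642310 to 102660680, plus strand) measured 116, 114 and 104 CPM against 129.6, 124 and 131 CPM, with a log2 fold change of 0.20 (SE 0.0456, edgeR adjusted p = 0.0427).

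Each of these 4 calls was lost when some libraries were left out, and 0 of the 4 passed without control replicate 1, control replicate 2 or PDZK1 replicate 1. TRIM5 lost its call without control replicate 1 (adjusted p = 0.0993), control replicate 2 (0.138), PDZK1 replicate 1 (0.136) or PDZK1 replicate 2 (0.0866). TRIM26 lost it without control replicate 1 (0.0885), control replicate 2 (0.0775), PDZK1 replicate 1 (0.139) or PDZK1 replicate 3 (0.133). TRIM68 lost it without the same 4 libraries, with adjusted p-values of 0.0599, 0.136, 0.141 and 0.144, and TRIM8 kept it only without control replicate 3. The log2 fold changes themselves stayed positive throughout, between 0.24 and 0.32 for TRIM5, 0.25 and 0.33 for TRIM26, 0.31 and 0.39 for TRIM68 and 0.16 and 0.23 for TRIM8. No other member had an adjusted p under 0.05 with all libraries. DESeq2 added TRIM2 to the 4 and limma-voom left out TRIM8.

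**Figure D2:**
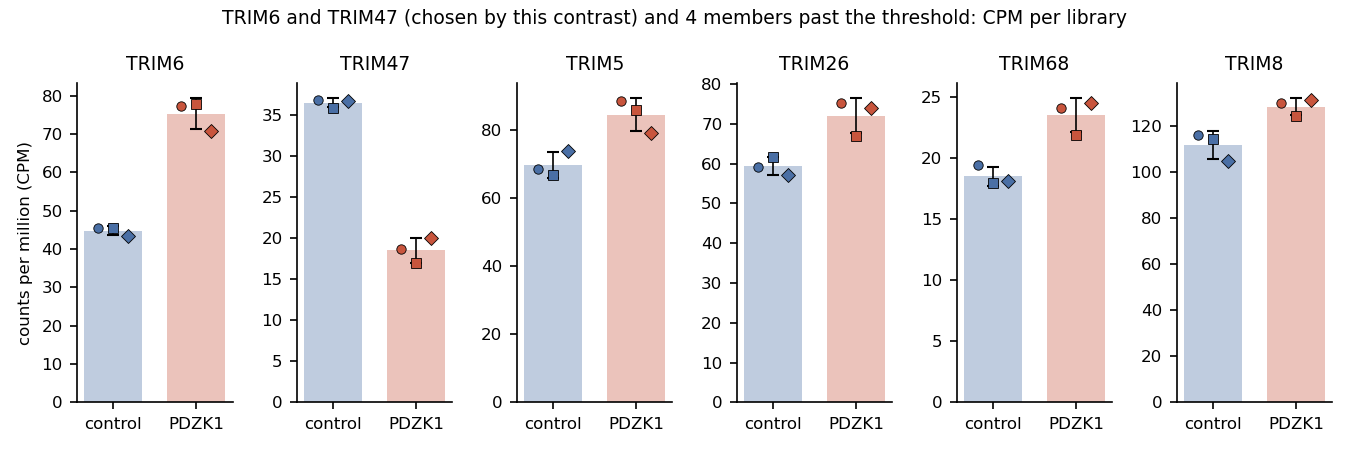
CPM of TRIM6, TRIM47, TRIM5, TRIM26, TRIM68 and TRIM8 in each library (circles, squares and diamonds are replicates 1, 2 and 3). Bars are group means and error lines are SD over n = 3, and each panel has its own axis from 0. TRIM6 goes from 44.8 to 75.3 CPM and TRIM47 from 36.5 to 18.5 CPM, while the other 4 genes differ by 1.15-fold to 1.27-fold, with no overlap between groups in any panel.

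Among members that missed the threshold, TRIM58 was the only one apart from TRIM47 whose PDZK1 libraries all lay below the controls. It measured 217, 226 and 219.8 CPM in control and 196, 211 and 192 CPM in PDZK1 libraries (log2 fold change -0.15, SE 0.0416, edgeR adjusted p = 0.0881), and it passed without PDZK1 replicate 2 (-0.19, adjusted p = 0.0478). Over the family, 11 members had all PDZK1 libraries above all controls and 2 had them all below, where 11.6% and 12.3% of all tested genes did. The median log2 fold change of the 47 members was 0.08, with 30 above 0 and 17 below, next to -0.00025 over all tested genes. For 37 of the 47 members the 95% interval lay within 1.5-fold in both directions, a share close to that of all tested genes (10698 of 13645). The exceptions in the family beyond TRIM6 and TRIM47 were TRIM34 and 7 members of few counts. These included TRIM17 (log2 fold change 0.67, interval -0.26 to 1.61) and the readthrough entry TRIM59-IFT80 (-0.69, interval -1.55 to 0.17).

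**Figure D3:**
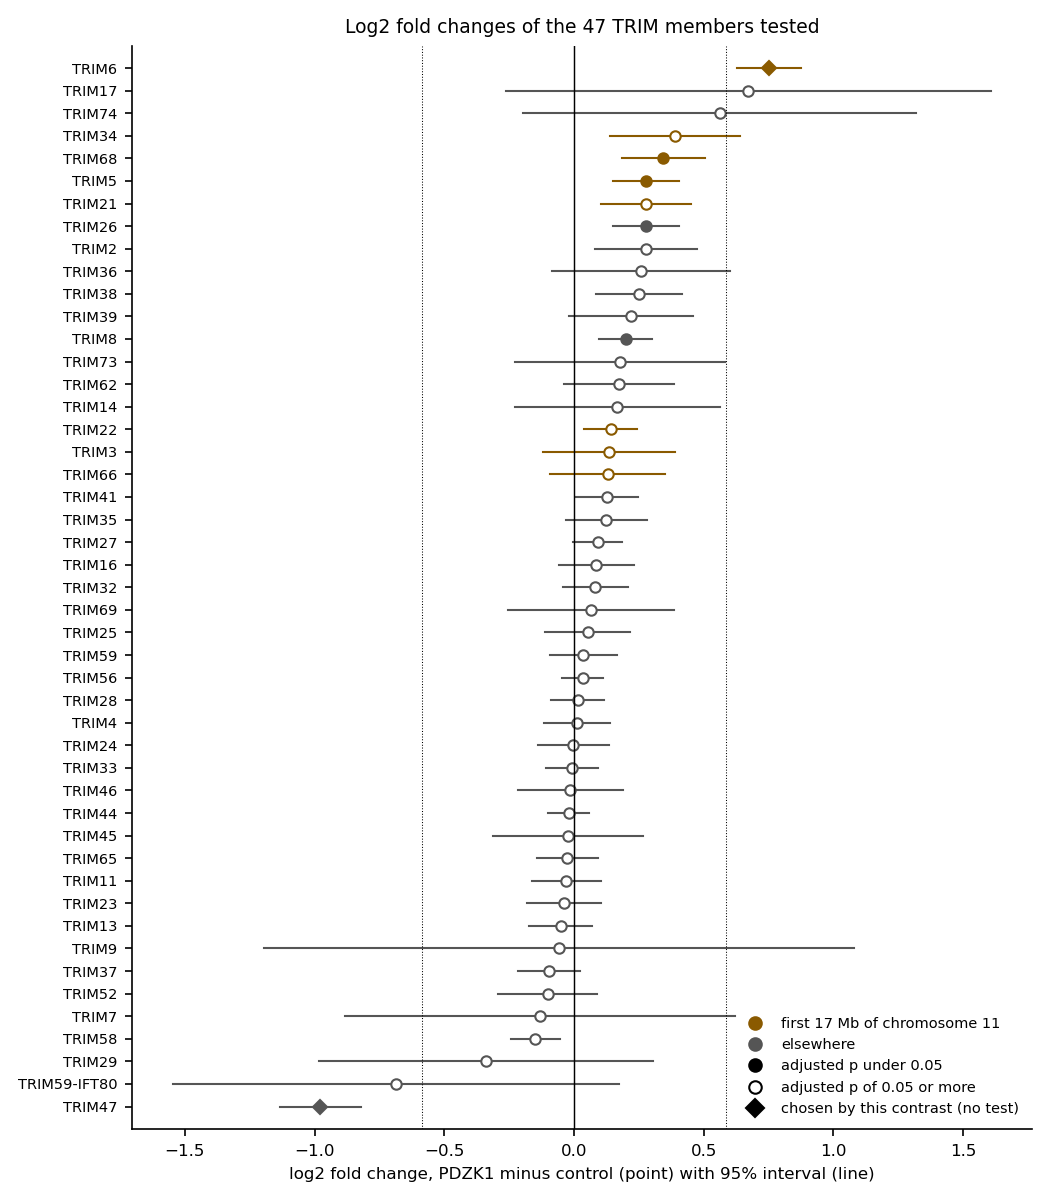
Log2 fold change (PDZK1 minus control) of the 47 tested TRIM members with its 95% interval from edgeR, where filled circles passed the adjusted threshold, open circles did not, and diamonds mark TRIM6 and TRIM47, which were chosen by this contrast. Brown marks the 8 members within the first 17 Mb of chromosome 11, which all lie right of 0, and dotted lines mark 1.5-fold.

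By protein architecture, the PRY-SPRY class was the largest, with 43 members, of which 24 were tested and 16 were at 0 in every library. Its tested members had a median log2 fold change of 0.13, with 19 above 0 and 5 below, where 49.9% of all tested genes were above 0. It held TRIM6 and TRIM47, chosen by this contrast, and TRIM5, TRIM26 and TRIM68, where 3.83% of all tested genes passed. Its members TRIM5, TRIM6, TRIM21, TRIM22, TRIM34 and TRIM68 lie in the first 17 Mb of chromosome 11, where 84.7% of all tested genes were above 0. Nothing is read from these shares about the class. Of the 4 PHD-bromodomain members, 0 passed the threshold in edgeR, DESeq2 or limma-voom, 0 had an unadjusted p under 0.05, and all 4 intervals lay within 1.5-fold. TRIM28 measured 204, 206 and 215 CPM in control and 201, 225 and 205 CPM in PDZK1 libraries (log2 fold change 0.01, 95% interval -0.09 to 0.12), TRIM24 had a fold of 0.998, TRIM33 of 0.994 and TRIM66 of 1.09. The sign of the TRIM28 difference turned without control replicate 1 (-0.0018) or without PDZK1 replicate 2 (-0.034). The histone methyltransferase SETDB1, the HP1 proteins and the other tested genes of the TRIM28 silencing machinery gave 0 of 14 past the threshold in edgeR, DESeq2 or limma-voom (2 of 14 at an unadjusted p under 0.05), with a median of 0.02.

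The 4 tested members with an NHL or filamin domain, TRIM2, TRIM3, TRIM32 and TRIM45, gave 0 past the edgeR threshold, with 1 at an unadjusted p under 0.05. TRIM2, a ligase of neurons that targets neurofilament light chain, came nearest, at 61.0, 63.5 and 75.8 CPM in control and 75.5, 85.6 and 81.5 CPM in PDZK1 libraries (0.28, SE 0.0857, edgeR adjusted p = 0.136). Its groups overlapped through control replicate 3, and it passed in edgeR without that library and in DESeq2 with all libraries. Of the COS-box members, which bind microtubules, 3 of 8 were tested and 0 passed in edgeR, DESeq2 or limma-voom, with 0 at an unadjusted p under 0.05. The transmembrane members TRIM13 and TRIM59, the ARF member TRIM23, the MATH member TRIM37 and the RING-less TRIM44 each had a 95% interval within 1.5-fold. TRIM73 and TRIM74, near-identical copies on chromosome 7, can share reads and are uncertain as single genes.

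The family is unevenly spread over the genome, and 23 of the 78 members lie on chromosome 11. Of these, 8 tested members lie within the first 17 Mb of the chromosome, a stretch taken from earlier results of these data. All 8 (TRIM21, TRIM68, TRIM6, TRIM34, TRIM5, TRIM22, TRIM3 and TRIM66) had log2 fold changes above 0, with a median of 0.28, and all 8 stayed above 0 whichever library was left out. Because these data entered the choice of the stretch and of TRIM6, nothing is read from these signs. TRIM29 (-0.34) and TRIM44 (-0.02), the tested members further along the chromosome, were below 0. With TRIM6 set aside, TRIM5 and TRIM68 were past the threshold, and neither was without control replicate 1, control replicate 2 or PDZK1 replicate 1. The 123 other tested genes of the stretch had a median of 0.13, with 103 above 0, 14 past the threshold higher and 3 lower. The 39 TRIM members elsewhere had a median of 0.03, with 22 above 0, and, with TRIM47 set aside, TRIM26 and TRIM8 as the members past the threshold. Of the 8, TRIM6, TRIM34, TRIM5 and TRIM22 form 1 cluster of adjacent genes, and position and gene family cannot be told apart for them.

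Downstream of TRIM6, the next tested genes were its paralogues TRIM34, TRIM5 and TRIM22, and upstream they were UBQLNL and OR51E2. TRIM34, an interferon-responsive paralogue whose start lies 23.7 kb downstream, measured 12.5, 14.5 and 14.8 CPM in control and 21.0, 17.3 and 16.5 CPM in PDZK1 libraries. It was higher in every PDZK1 library but did not pass (log2 fold change 0.39, SE 0.111, edgeR adjusted p = 0.0945). TRIM22 measured 183, 189 and 191 CPM against 221, 201 and 199 CPM (0.14, SE 0.0455, adjusted p = 0.133). TRIM5 and TRIM22 overlap by 47401 bp on opposite strands, so their reads may not be separated if the counting ignored strand. Further out, the ribonucleotide reductase gene RRM1 had a log2 fold change of -0.04 and the sphingomyelinase gene SMPD1 of 0.14, and the values around TRIM6 were thus lower than that of TRIM6 except for UBQLNL (0.84, SE 0.329, adjusted p = 0.222).

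A readthrough entry, TRIM6-TRIM34, spans both genes. It had 0 counts in 5 libraries and 128 counts in PDZK1 replicate 3, which were 4.43% of the counts of the locus in that library. With the readthrough and both genes summed, the locus measured 57.9, 60.1 and 58.2 CPM in control and 98.4, 95.1 and 91.2 CPM in PDZK1 libraries.

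Beside TRIM47, the neighbour TRIM65, a ligase of the RNA sensor MDA5 whose start coordinate lies 6.17 kb away, measured 34.3, 35.6 and 33.9 CPM in control and 34.5, 33.4 and 34.1 CPM in PDZK1 libraries. Its log2 fold change was -0.03 (95% interval -0.14 to 0.09). Another gene of the stretch did differ by nearly the same amount as TRIM47. This was UNC13D, which encodes the granule-priming factor Munc13-4. Its start coordinate (the lower end, both genes being on the minus strand) lies 46.9 kb from that of TRIM47. UNC13D measured 88.3, 90.6 and 95.9 CPM in control and 50.6, 48.5 and 43.1 CPM in PDZK1 libraries (log2 fold change -0.95, SE 0.0648, edgeR adjusted p = 0.000116). WBP2 lies between UNC13D and TRIM47 and had a log2 fold change of -0.05 (SE 0.0418), so the lower values did not cover the whole interval. Of the other neighbours plotted, FBF1 had a log2 fold change of -0.21 (SE 0.134) and MRPL38 of 0.05 (SE 0.0497), and an entry without a symbol had a wide error (0.85, SE 0.463).

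**Figure D4:**
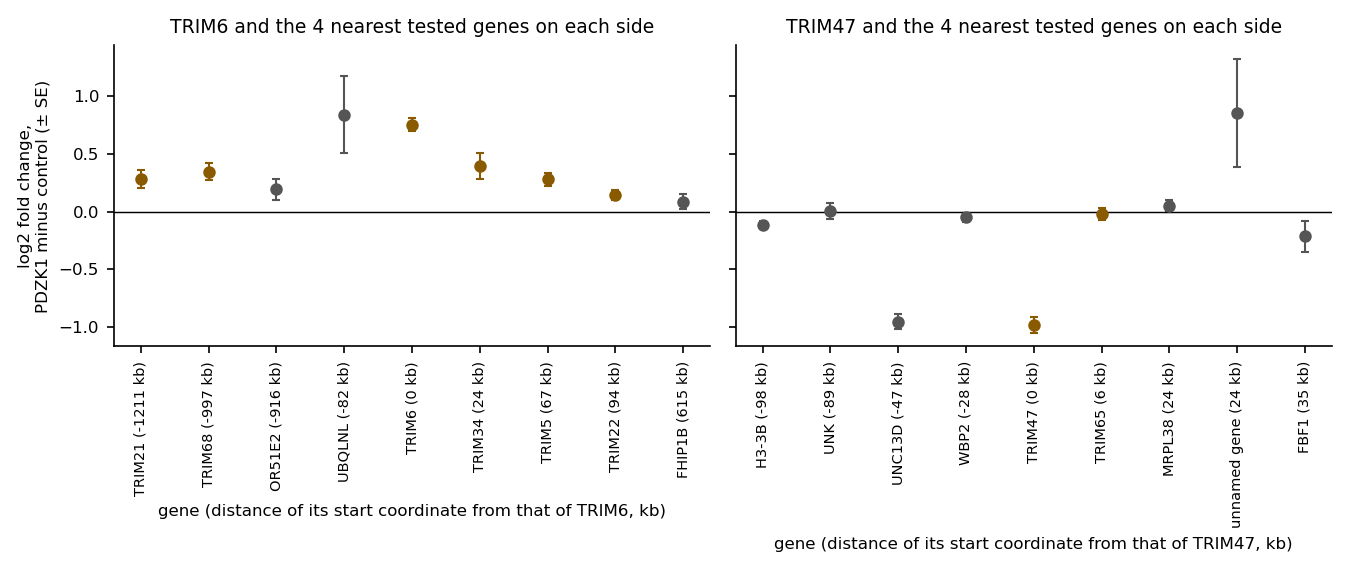
Log2 fold change (PDZK1 minus control, ± SE from edgeR) of TRIM6 and TRIM47 and of the 4 nearest tested genes on each side, in chromosomal order, with distances between start coordinates in kb and TRIM genes in brown. The TRIM genes around TRIM6 lie between 0.14 and 0.39, whereas near TRIM47 only UNC13D (-0.95) lies as low.

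Of the TRIM genes that textbooks list as interferon-induced, 9 were tested: TRIM5, TRIM14, TRIM21, TRIM22, TRIM25, TRIM34, TRIM38, TRIM56 and TRIM69. All 9 had log2 fold changes above 0, from 0.03 for TRIM56 to 0.39 for TRIM34, with a median of 0.17. TRIM5 was the only one past the threshold. Over all tested genes 49.9% were above 0. TRIM5, TRIM21, TRIM22 and TRIM34 lie in the first 17 Mb of chromosome 11, where 103 of 123 tested genes other than TRIM members were above 0. Position and interferon induction cannot be told apart for them. TRIM21, the cytosolic antibody receptor, measured 27.2, 30.9 and 27.1 CPM against 37.2, 31.8 and 34.4 CPM (0.28, SE 0.0774, edgeR adjusted p = 0.0881). TRIM38, a ligase that restrains signalling from Toll-like receptors, measured 38.4, 36.3 and 39.3 CPM against 50.3, 41.7 and 43.7 CPM (0.25, SE 0.0744, adjusted p = 0.107).

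PDZK1 replicate 1 was the highest library for all of these except TRIM56. TRIM14, an adaptor at mitochondrial MAVS, measured 46.8 to 51.6 CPM in control and 70.3, 47.3 and 49.9 CPM in PDZK1 replicates 1 to 3. TRIM25 measured 141 to 155 CPM in control and 171, 148 and 143 CPM in PDZK1 libraries, and TRIM69 measured 8.66 to 10.0 CPM against 11.6, 8.97 and 8.20 CPM. TRIM14 overlaps NANS by 13801 bp and TRIM25 overlaps DGKE by 33181 bp on opposite strands, so the limit on strand given for TRIM6 holds for them too. Without PDZK1 replicate 1 these 3 members turned to -0.031 (TRIM14), -0.028 (TRIM25) and -0.094 (TRIM69), 6 of the 9 stayed above 0, and the median fell to 0.09. Without PDZK1 replicate 2 it was 0.27.

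The wider interferon response was highest in the same library. Over 34 tested interferon response genes outside the family the median log2 fold change was 0.35, with 31 above 0, and it was 0.12 without PDZK1 replicate 1 and 0.54 without PDZK1 replicate 2. IFIT1, an RNA-binding antiviral effector, measured 16.5 to 22.0 CPM in control and 101, 28.8 and 32.2 CPM in PDZK1 replicates 1 to 3. SAMD9 was the only one of the 34 past the threshold in edgeR and in limma-voom (1.67, SE 0.185, edgeR adjusted p = 0.00129), and DESeq2 passed 3. The part of this library in the values of the interferon-induced TRIM genes was not tested beyond leaving it out. For TRIM47, PDZK1 replicate 1 lay between the other libraries of its group, and for TRIM6 it lay within 1 CPM of PDZK1 replicate 2.

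**Figure D5:**
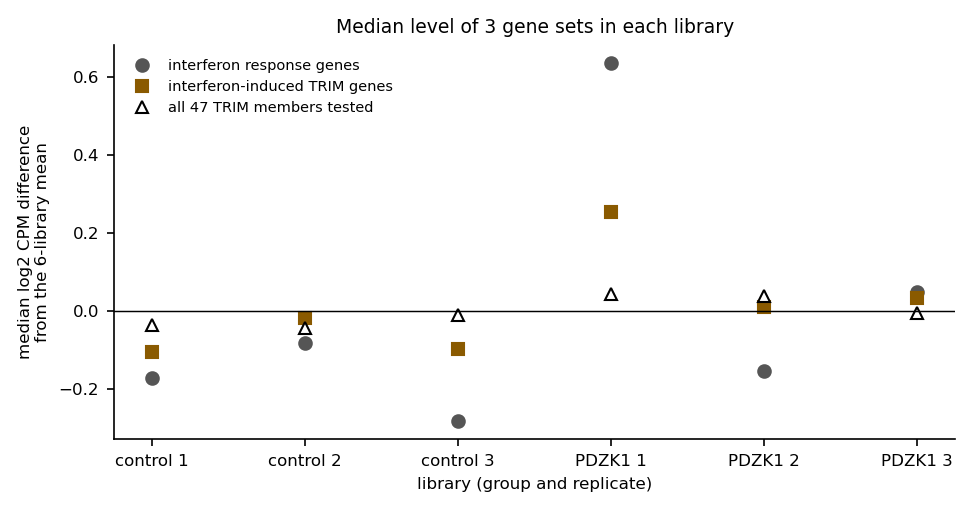
Median log2 CPM difference from the 6-library mean, in each library, for 34 interferon response genes (circles), 9 interferon-induced TRIM genes (squares) and all 47 tested TRIM members (triangles). PDZK1 replicate 1 lies highest for both interferon sets, at 0.63 and 0.25, while the medians of the whole family stay between -0.05 and 0.04.

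Sequence around the transcription start was read for 63 of the 78 members from a table of RefSeq promoters (GRCh38.p14) that covers part of the genes, in windows of 250 bases before to 50 bases after the start. The core of the interferon-stimulated response element, GAAANNGAAA or TTTCNNTTTC on the other strand, was found in windows of 10 of the 63 members (15.9%), against 4.38% of all genes with a window. Of the 36 tested members with a window, 9 held it (25.0%): TRIM2, TRIM5, TRIM14, TRIM16, TRIM21, TRIM26, TRIM34, TRIM44 and TRIM69. The windows of TRIM6, TRIM47 and TRIM68 held no match, nor did those of the interferon-induced TRIM25, TRIM38 and TRIM56. No window was at hand for TRIM8 and TRIM22. The log2 fold changes of TRIM2, TRIM16, TRIM44 and TRIM69, which held a match, were 0.28, 0.09, -0.02 and 0.07. The stretches of the other tested holders, chosen with their values known, are shown on the strand of the gene, with the matching bases in capitals.
TRIM5 (chr11:5685082-5685111, minus strand): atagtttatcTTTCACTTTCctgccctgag
TRIM26 (chr6:30213578-30213607, minus strand): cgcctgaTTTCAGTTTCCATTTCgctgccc
TRIM34 (chr11:5624901-5624930, plus strand): gccccaaaaaTTTCACTTTCatttctcagg
TRIM21 (chr11:4393663-4393692, minus strand): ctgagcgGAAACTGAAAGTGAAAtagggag
TRIM14 (chr9:98119229-98119258, minus strand): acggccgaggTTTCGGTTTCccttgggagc
TRIM26 and TRIM21 each held 2 overlapping matches, and those of TRIM21 lie just after the start, whereas the others lie before it. TRIM5 and TRIM34, which lie in the same cluster, had the same 10 matching bases. A match is a run of letters and not a measured site, and these data hold no binding measurement.

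The windows of tested members and of members at 0 counts differed in base composition, given here as medians with no test. The median GC content was 62.7% over the windows of tested members, with a median of 17.5 CpG dinucleotides, and 39.3% with 2 CpG over the windows of members at 0 counts, while all promoters had medians of 58.7% and 14.

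For the 22 members at exactly 0 in every library, a level too low for this depth would not have been seen. Of these, 16 were PRY-SPRY genes and 12 lay on chromosome 11. They included the TRIM49, TRIM64, TRIM51 and TRIM77 genes, recent duplicates of chromosome 11, the muscle ligase TRIM63 (MuRF1), TRIM43, TRIM60 and, on chromosome 6, TRIM15, TRIM31 and TRIM40. A further 4 members stayed at or under 3 counts, among them TRIM71, a regulator of stem cells, and TRIM72, a membrane repair factor of muscle. The near-identical copies on chromosome 11 could share reads. The counter is not given, and had it dropped shared reads, 0 counts would not show that these copies are unexpressed.

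No gene of the lists of TRIM partners and relatives passed the edgeR threshold. Of 20 tested E2 enzymes, E1 enzymes and ubiquitin genes, 0 passed the threshold in edgeR, DESeq2 or limma-voom (2 of 20 at an unadjusted p under 0.05), and the median log2 fold change was -0.01. UBE2D1, an E2 that many RING ligases use, was 36.3 to 38.3 CPM in control and 41.4 to 44.3 CPM in PDZK1 libraries (0.20, adjusted p = 0.0727). Of 21 tested genes of RNA sensing and IKK signalling, 0 passed in any of the 3 tools and 0 had an unadjusted p under 0.05 in edgeR. Within this list, RIGI, the RNA sensor that TRIM25 modifies, measured 28.8 to 31.1 CPM in control and 58.8 CPM in PDZK1 replicate 1, with at most 35.3 CPM in the other PDZK1 libraries. IKBKE, which encodes the IKKε kinase that TRIM6 acts on, had a log2 fold change of 0.12 (SE 0.103). Of 11 tested relatives that share all or part of the TRIM architecture under other names, 0 passed in edgeR or limma-voom. In edgeR 1 of the 11 had an unadjusted p under 0.05. RFPL1, a relative with too few counts for the edgeR test, was lower in DESeq2. It had 8, 8 and 23 counts in control and 0, 0 and 2 counts in PDZK1 libraries. PML, the organiser of nuclear bodies, had a log2 fold change of 0.01 (SE 0.0984), and MID1, a microtubule-bound ligase, of -0.06 (SE 0.0530).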

How the data were processed

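RNA sequencing data of 6 libraries (control and PDZK1, 3 each) were analysed. The authors deposited estimated counts per gene as whole numbers, unscaled, and FPKM. Their processing notes name fastp 0.20.1, HISAT2 2.2.1 and GRCh38, whereas the counter and strandedness are not given in the sources used here. Each table has 3 further columns that match no sample, and these were not used. Assembled loci (0.519% to 0.536% of counts) were left out. Genes passing filterByExpr were tested with edgeR 4.0.16 (R 4.3.3, TMM, robust quasi-likelihood, two-sided), and Benjamini-Hochberg adjustment covered all 13645. The script was tested on simulated counts. Errors are SD over 3 libraries, and intervals are 95% intervals of the model. All 78 members matched GENCODE release 29.

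Members and lists were chosen with earlier results of these data known. Named members were TRIM6, TRIM47, those past the threshold, those whose groups did not overlap with a log2 fold change of at least 0.2, the 5 of highest FPKM, the largest remaining change each way, interferon-induced members, those within 500 kb of TRIM6 or TRIM47 and 5 tested neighbours each side, of which some are not reported here. Others were chosen after their values were seen. Alternatives were DESeq2 1.42.0, limma 3.58.1 (voom, or log2 FPKM with pseudocounts of 1 or 0.1), other scalings, filters and fits, a replicate block, and each library left out.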

Additional observations from a re-analysis of the deposited data

Results flagged for a closer look

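Members outside the test were flagged only if a PDZK1 library held over 3 counts and more than the highest control, so the direction was fixed by the rule. Others, such as TRIM55 and TRIM61, went the other way. TRIM55 reached 12 counts in control replicate 3 against at most 2 in PDZK1 libraries. TRIM61 reached 7 counts in control replicate 1 against at most 3 in PDZK1 libraries. The readthrough TRIM6-TRIM34 reached 128 counts in PDZK1 replicate 3 and had 0 in the other 5 libraries. TRIM54, a muscle member of the COS-box class, reached 14 counts in PDZK1 replicate 2, with 7 and 12 in PDZK1 replicates 1 and 3 and 6, 0 and 5 in control replicates 1 to 3. TRIM50 had 4 counts in PDZK1 replicate 3 and 0 elsewhere. None of the 3 flagged members was tested. With 3 libraries a group no single library was tested as an outlier, though each was left out in turn for the tested members.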

How the results depend on the processing

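Over 19 alternatives the log2 fold change was 0.69 to 0.80 for TRIM6 and -1.03 to -0.89 for TRIM47, which were chosen by this contrast, so that nothing is read from these ranges or from their part in the counts below. With 6 members past the threshold in the main test, 5 higher and 1 lower, and 522 genes in all, DESeq2 gave 814 genes (TRIM2 added), and log2 FPKM gave 184, 185 and 185 genes for pseudocounts of 1, 0.1 and 1 without a filter, each with 1 member higher (TRIM6). Each library left out gave 181 to 875 genes, 1 to 6 members higher and 1 to 2 lower (TRIM58 added without PDZK1 replicate 2), and a family median of 0.053 (without control replicate 2) to 0.10. TRIM28 ran from -0.034 (without PDZK1 replicate 2) to 0.045 and was -0.0018 without control replicate 1. Without PDZK1 replicate 1, TRIM14, TRIM25 and TRIM69 turned to -0.031, -0.028 and -0.094, while with other libraries left out they reached 0.28, 0.10 and 0.17. The other scalings, count filters and fits gave 4 or 5 members higher and 1 lower. The cause of these shifts was not tested. Other results for named members kept direction and side in 258 of 300 cases. TRIM5, TRIM26 and TRIM68 passed in 11 of 19 alternatives and TRIM8 in 7. Summing readthrough entries, an alternative chosen after seeing the data, left the calls as they were.

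The replicate numbers gave residual correlations of -0.05, -0.06 and -0.14 for same-numbered libraries, and at most 0.13 for libraries of other numbers. With 3 libraries a group, each centred on its own mean, these values cannot show whether same-numbered libraries were paired. No label gives a pairing. With the replicate block 163 genes passed and 1 member was higher (TRIM6) and 1 lower (TRIM47), with adjusted p-values of 0.124 for TRIM26, 0.124 for TRIM5, 0.0835 for TRIM68 and 0.138 for TRIM8. Depth limits the members at few counts, such as TRIM17, and 3 libraries a group limit all calls.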
